A study of Mus musculus with 10 samples.

Results

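The genes described here are 10 members of the BCL2 family, the regulators of mitochondrial cell death: Bcl2, Bcl2l1, Mcl1, Bcl2l11, Pmaip1, Bbc3, Bid, Bad, Bax and Bak1. They were chosen by symbol from the 21556 genes of the count table, with earlier results of these data known. All 10 passed the filter on low counts, together with 13910 other genes. The samples were regulatory T cells (Tregs, the CD4 lineage that restrains immune responses and is defined by Foxp3), sorted by red fluorescence (RFP) from mice aged 10 weeks that had been injected with a melanoma line that induces lymphatic vessels. Tumor gave 2 libraries from MHCII-deleted mice (genotype MHCIIdeltaProx-1, positive for Prox1Cre) and 3 from control mice (MHCIIfl/fl, negative for Prox1Cre). Lymph node (LN) gave 2 libraries from MHCII-deleted mice and 3 from control mice. Prox1 is a transcription factor of lymphatic endothelium, so the Cre removes floxed MHC class II there and not in the sorted cells, whose RNA cannot show the deletion. The labels do not say which gene drives RFP, whether the Cre was inducible, which LN was taken, or whether libraries came from single mice, so p-values measure the spread between these libraries, which may be technical.

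The family acts at the outer mitochondrial membrane. Bax and Bak1 form the pores that release cytochrome c, the anti-apoptotic proteins encoded by Bcl2, Bcl2l1 (BCL-XL) and Mcl1 hold them in check, and the BH3-only proteins bind and neutralise these guardians or activate the pore formers. In mouse Tregs, interleukin 2 signaling through STAT5 is known to sustain survival, MCL1 is known to be required for it, and BIM, the product of Bcl2l11, is known to drive loss of these cells. Activated T cells are known to exchange BCL2 for BCL-XL.

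Libraries held 28539329 to 35736175 counts, and 12825 to 14703 genes were detected in each. Levels are given as CPM, counts divided by library size and scaled between libraries by TMM, and a count of 0 allows up to 0.0809 to 0.107 CPM (3 counts, counting error only, as amplified reads carry no molecular identifiers). Foxp3 was detected in every library, at 342 and 349 CPM in tumor of MHCII-deleted mice and 646 to 817 CPM in tumor of control mice. In LN it lay at 580 and 654 CPM in MHCII-deleted mice and at 644 to 747 CPM in control mice. Counts of 24 genes shared by T cells, listed with earlier results of these data known, summed to 7859 and 9389.7 CPM in tumor of MHCII-deleted mice, against 18857 to 19309 in tumor of control mice. In LN they summed to 19919 and 20026 CPM in MHCII-deleted mice and 19643.5 to 20683.5 in control mice. One of them, Ptprcap, was at 0 throughout. All 15 melanoma markers were detected in both tumor groups, with sums of 19671.5 and 23903 CPM in MHCII-deleted mice and 4948 to 9625 in control mice, against 16.4 to 34.9 CPM in LN. Myeloid markers summed to 434 and 468 CPM in tumor of MHCII-deleted mice, against 129 to 233 in tumor of control mice, with all 15 detected in each. Stromal and endothelial markers summed to 396 and 950.3 CPM in tumor of MHCII-deleted mice and to 576 to 4291 CPM in tumor of control mice. Markers of B and plasma cells were higher in LN, at 1213 and 1751 CPM in MHCII-deleted mice and 1467 to 1714 in control mice. In tumor they summed to 396 and 457 CPM in MHCII-deleted mice and 629 to 711 in control mice. Because these amounts differ, effects that involve tumor of MHCII-deleted mice were also fitted relative to the summed T cell genes. The part of the other cell types in the members' differences was not tested. In such bulk samples, fewer cells of a type and less RNA per cell cannot be told apart.

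In tumor samples of control mice Bcl2 and Bid fell relative to LN, while Bcl2l1, Bcl2l11, Pmaip1 and Bax rose. This made 6 of 10 members called (edgeR quasi-likelihood, adjusted p under 0.05), 4 higher and 2 lower, where 38.9% of all tested genes were called, 22.8% higher and 16.1% lower. These tumor samples also held melanoma markers, at 4948 to 9625 CPM, against 16.4 to 26.9 CPM in LN of control mice. The part of such RNA in this comparison was not tested either. In MHCII-deleted mice Bcl2, Bbc3 and Bid fell in tumor and Bcl2l1, Bcl2l11 and Pmaip1 rose, 3 in each direction, where 44.4% of all genes were called, 24.3% higher and 20.1% lower. Between the genotypes in tumor, Bcl2 was higher in MHCII-deleted mice, and Bcl2l1, Bcl2l11 and Pmaip1 were lower. For this comparison, called the deletion effect in tumor, 28.7% of all genes were called, 15% higher and 13.7% lower. In LN no member was called by edgeR for the deletion effect, where 1.11% of all genes were, 1.07% higher and 0.0359% lower, and 4 members (Bcl2, Bcl2l1, Mcl1 and Bbc3) had an unadjusted p under 0.05, as had 9.32% of all genes. DESeq2 called 0 members there and 5.61% of all genes, and a fit of the LN libraries alone called 2 members, Bcl2 and Mcl1, and 6.79% of all genes. The groups did not overlap for 5 members in the tumor comparison of genotypes, where 53.6% of all genes did not, and for 5 members in that of LN, against 27.3% of all genes. Between tissues they did not overlap for 8 members in MHCII-deleted mice and 6 in control mice, against 75.6% and 53% of all genes.

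The scaling decides how these counts divide wherever tumor of MHCII-deleted mice takes part. Scaled to T cell genes, the deletion effect in tumor had 7 members higher and 0 lower, against 68.1% of all genes higher and 0.309% lower. The median log2 fold change of all genes was then 1.26, against 0.10 with TMM, and the members' median was 0.88, against -0.28 with TMM, below that of all genes on both scales. The tissue effect in MHCII-deleted mice had 6 members higher and 1 lower on the T cell scale, where 64.8% of all genes were higher and 2.23% lower and their median was 1.29, against 0.07 with TMM. In control mice it had 4 higher and 1 lower, where 23.8% were higher and 10.7% lower. For LN, 0 members were called by edgeR on this scale too, where 2.79% of all genes were higher and 0.0431% lower. Of all calls, 99.5% were higher on the T cell scale and 52.3% with TMM in the deletion effect in tumor. The corresponding shares were 96.7% and 54.8% for the tissue effect in MHCII-deleted mice, and 69.1% and 58.6% for that in control mice.

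**Figure D1:**
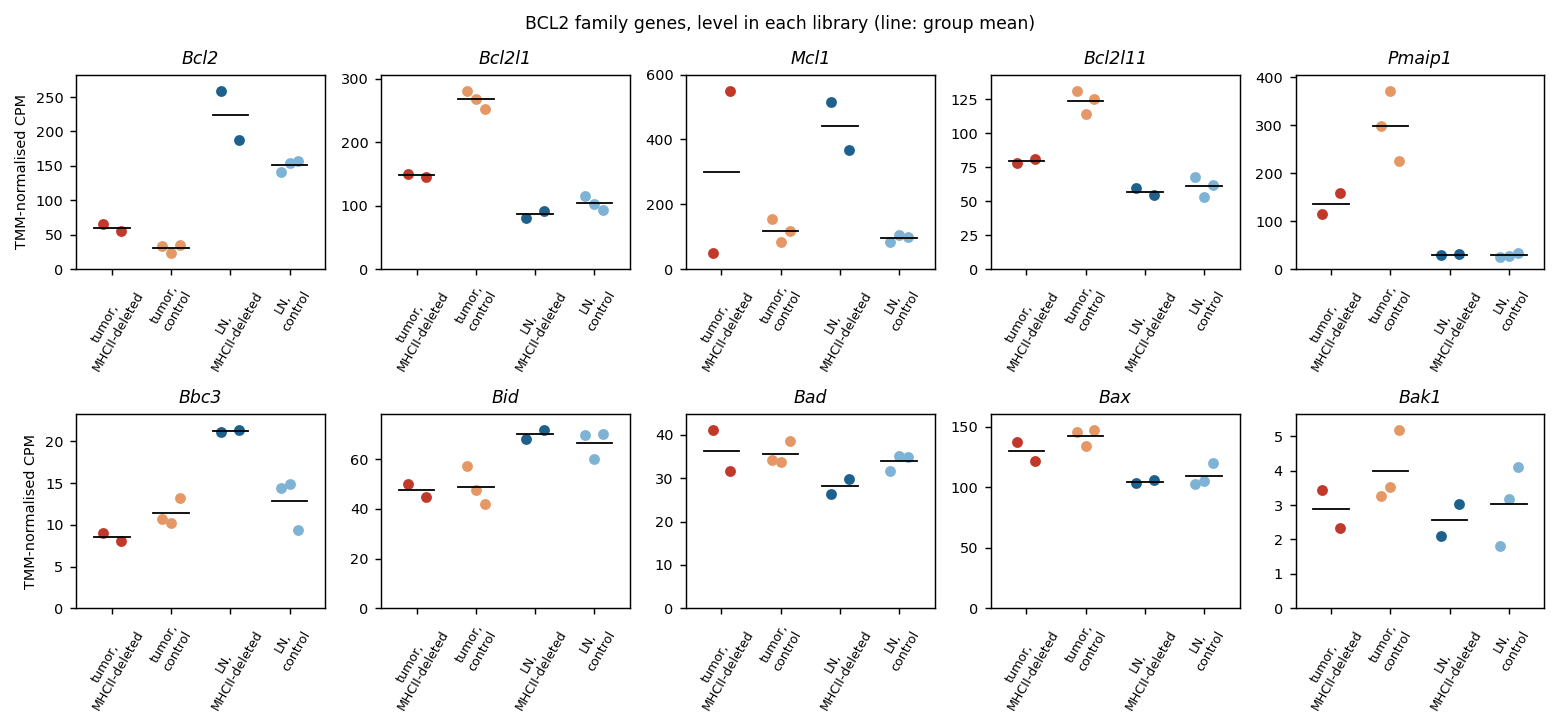
TMM-normalised CPM (vertical axis, starting at 0) of the 10 genes in each library, with tumor of MHCII-deleted and control mice left of LN of MHCII-deleted and control mice; points are libraries and lines are group means. Bcl2 is lower and Pmaip1 higher in every tumor library than in any LN library, and Mcl1 is far apart between both libraries of tumor from MHCII-deleted mice, at 48.5 and 551 CPM.

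The levels per length of exon place the members in an order, with CPM per kilobase as the scale. In tumor of MHCII-deleted mice the order was Mcl1, Bax, Pmaip1, Bcl2l1, Bad, Bid, Bcl2l11, Bcl2, Bbc3 and Bak1, with means of 87.6, 82.3, 49.8, 32.2, 14.2, 13.4, 9.95, 6.54, 4.01 and 1.20. Mcl1 stood at 14.2 and 161 in libraries 1 and 2, so its first rank rests on library 2, and in library 1 it lay below Bad at 16.1. Bad and Bid overlapped between libraries. In tumor of control mice Pmaip1 (109) and Bax (90.4) led with overlapping values, followed by Bcl2l1 (58.3) and Mcl1 (34.5). Bcl2l11, Bad and Bid overlapped at 15.4, 13.9 and 13.8, and Bbc3, Bcl2 and Bak1 closed the order at 5.36, 3.32 and 1.66. In LN of MHCII-deleted mice Mcl1 (129), Bax (66.4) and Bcl2 (24.4) led, and Bid (19.7) overlapped with Bcl2l1 (18.9). In LN of control mice Bax (69.5) led, Mcl1 (28.2) and Bcl2l1 (22.7) overlapped, as did Bid (18.8) and Bcl2 (16.5), and Bak1 was last at 1.26. Thus Bcl2 was ranked 8th and 9th of 10 in the tumor groups and 3rd and 5th in the LN groups, and Pmaip1 was ranked 3rd and 1st in tumor and 7th in both LN groups. Bak1 shares exon bases with Ggnbp1 on the other strand, Bid with Bcl2l13 and Bad with Gpr137, and the strand setting of the counting is not given in the sources used here, so reads of those stretches cannot be assigned with certainty. Bcl2 shares 558 bases with an antisense gene, and Bax shares 192 bases with Gm45808 on its own strand.

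Among the anti-apoptotic members, Bcl2 (ENSMUSG00000057329, GRCm38 chromosome 1, 106538178 to 106714274, minus strand) encodes the founding member of the family. It stood at 64.7 and 55.0 CPM in tumor of MHCII-deleted mice and at 32.8, 23.7 and 34.6 CPM in tumor of control mice. In LN it stood at 259 and 187 CPM in MHCII-deleted mice and at 141, 154 and 158 CPM in control mice. Every tumor library lay below every LN library, and within each tissue the libraries of MHCII-deleted mice lay above those of control mice. In MHCII-deleted mice Bcl2 fell in tumor by 1.90 ± 0.21 on the log2 scale (SE; edgeR, adjusted p = 6.67e-05), and in control mice by 2.31 ± 0.17 (adjusted p = 6.91e-06). The first value became -0.67 ± 0.23 when scaled to T cell genes (edgeR, adjusted p = 0.0241), while the second was -2.23 ± 0.19. With the deletion, Bcl2 rose in tumor with a log2 fold change of 0.98 ± 0.18 (edgeR, adjusted p = 0.0039), or 2.14 ± 0.21 scaled to T cell genes. In LN the difference was 0.57 ± 0.18 and did not pass over all 10 libraries (edgeR, adjusted p = 0.204), but passed with the LN libraries alone (0.58, adjusted p = 0.0358). The deletion effects in tumor and LN were not shown to differ (0.41 ± 0.26, edgeR interaction, adjusted p = 0.348), but with T cell scaling the difference was 1.56 ± 0.29 (adjusted p = 0.00206).

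Bcl2l1 (ENSMUSG00000007659, chromosome 2, 152780668 to 152831728, minus strand), which encodes BCL-XL, ran the other way between the tissues. Its level was 150 and 145 CPM in tumor of MHCII-deleted mice, compared with 282, 268 and 253 CPM in tumor of control mice. In LN it was 81.2 and 91.9 CPM in MHCII-deleted mice and 116, 102 and 93.7 CPM in control mice. All 4 groups were free of overlap, with tumor above LN and control above MHCII-deleted mice within each tissue. In MHCII-deleted mice Bcl2l1 rose in tumor with 0.77 ± 0.13 (edgeR, adjusted p = 0.000815), or 2.00 ± 0.16 with T cell scaling, and in control mice with 1.36 ± 0.10 (adjusted p = 7.79e-06). The deletion effect in tumor was -0.86 ± 0.12 (edgeR, adjusted p = 0.000839), and it turned to 0.30 ± 0.14 with T cell scaling, which did not pass (adjusted p = 0.0854). In LN the deletion effect was -0.26 ± 0.11 (edgeR, adjusted p = 0.501).

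Promoter sequences are given for Bcl2, which fell in tumor of both genotypes, and for Bcl2l1 and Bcl2l11, which rose there. The 250 bases before the most upstream RefSeq start of each are shown (GRCm38.p6), with matches to the FOXO motif GTAAACA or the GC box GGGCGG, on either strand, in capitals. The Bcl2 stretch is chr1:106714291-106714540 on the minus strand, that of Bcl2l1 is chr2:152831729-152831978 on the minus strand, and that of Bcl2l11 is chr2:128125788-128126037 on the plus strand.
Bcl2: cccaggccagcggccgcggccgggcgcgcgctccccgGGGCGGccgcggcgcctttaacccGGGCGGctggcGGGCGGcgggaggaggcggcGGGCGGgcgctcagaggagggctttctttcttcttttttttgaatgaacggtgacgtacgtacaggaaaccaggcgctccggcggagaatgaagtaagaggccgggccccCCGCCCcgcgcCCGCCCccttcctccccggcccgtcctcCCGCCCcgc
Bcl2l1: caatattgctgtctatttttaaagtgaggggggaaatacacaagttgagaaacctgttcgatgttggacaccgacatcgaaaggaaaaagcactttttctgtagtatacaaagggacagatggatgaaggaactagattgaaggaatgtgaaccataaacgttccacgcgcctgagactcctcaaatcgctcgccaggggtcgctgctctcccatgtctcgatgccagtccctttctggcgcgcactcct
Bcl2l11: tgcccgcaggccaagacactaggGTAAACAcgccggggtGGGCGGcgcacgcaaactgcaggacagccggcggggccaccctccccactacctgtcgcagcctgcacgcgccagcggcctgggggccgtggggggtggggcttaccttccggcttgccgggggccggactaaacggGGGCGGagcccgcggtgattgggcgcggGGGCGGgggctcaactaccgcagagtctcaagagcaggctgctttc
GC content is 74.8% for Bcl2, 47.6% for Bcl2l1 and 72% for Bcl2l11. Bcl2 holds 7 GC boxes and Bcl2l11 holds 3, while the Bcl2l1 stretch holds none. Of 32851 RefSeq promoters, 32.7% hold this GC box in the same window. The FOXO motif, which 3.17% of the promoters hold, lies 227 bases before this start of Bcl2l11. It was not matched before the other RefSeq start of Bcl2l11. Bbc3, which fell in tumor of MHCII-deleted mice, holds it 167 bases before a RefSeq start. Neither the STAT motif TTCNNNGAA (7.02% of promoters) nor the AP-1 motif TGANTCA (6.75%) was matched in the 3 stretches. A match is a description of letters and not a site. Of the 10 members, 9 have a RefSeq promoter here.

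Mcl1 (ENSMUSG00000038612, chromosome 3, 95658788 to 95663176, plus strand), encodes a short-lived guardian protein. It stood at 48.5 and 551 CPM in tumor of MHCII-deleted mice and at 155, 83.3 and 116 CPM in tumor of control mice. In LN it stood at 517 and 368 CPM in MHCII-deleted mice, against 84.0, 106 and 99.0 CPM in control mice. The groups did not overlap in LN, while in tumor both libraries of MHCII-deleted mice lay on either side of those of control mice. The deletion effect was 1.34 ± 0.70 in tumor (edgeR, adjusted p = 0.177), or 2.39 ± 0.65 with T cell scaling (adjusted p = 0.00769), and 2.20 ± 0.71 in LN (adjusted p = 0.217). Without library 2 of the tumors of MHCII-deleted mice the tumor effect turned to -1.28 (edgeR, adjusted p = 0.0217), and without library 1 it was 2.22 (adjusted p = 0.00108). The tissue effect was -0.56 ± 0.78 in MHCII-deleted mice (edgeR, adjusted p = 0.583), 0.55 with T cell scaling (adjusted p = 0.509), -3.19 without tumor library 2 (adjusted p = 0.000172) and 0.31 without tumor library 1, and 0.29 ± 0.64 in control mice (adjusted p = 0.749). With the LN libraries alone, the LN effect was 2.21 (edgeR, adjusted p = 2.89e-05).

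The 3 libraries with the highest Mcl1 level, both from LN and library 2 from tumor of MHCII-deleted mice, were also high in genes with a GC-rich stretch. A window of 100 bases in a Mcl1 transcript reaches 87% GC, the highest of the 10 members. The 1116 other tested genes with a window above 85% deviated from the mean of their tissue by a median of 0.31 to 0.79 (log2) in those 3 libraries and by -0.34 to -0.06 in the other 7. In LN this median was 0.39 and 0.31 in MHCII-deleted mice and -0.26 to -0.20 in control mice. A covariate made of it therefore cannot be told apart there from the deletion. With that median as a covariate, an alternative chosen after seeing the data, the deletion effect on Mcl1 was 0.12 in LN (edgeR, adjusted p = 0.941) and turned to -1.26 in tumor (adjusted p = 0.00106). The tissue effect in MHCII-deleted mice was also -1.26 with it (edgeR, adjusted p = 8.36e-05), and the deletion effect in tumor minus that in LN was -1.37 (adjusted p = 0.00228), against -0.85 ± 1.00 without it. The corresponding values of Bcl2 were 0.60 in LN and 1.01 in tumor (edgeR, adjusted p = 0.518 and 0.0111).

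**Figure D2:**
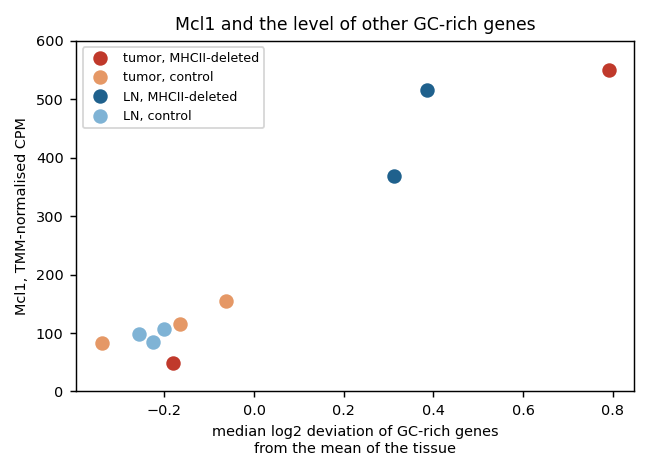
Mcl1 level (TMM-normalised CPM, vertical axis) against the median log2 deviation of other genes with a GC-rich window from the mean of their tissue (horizontal axis), 1 point a library, coloured by group. The 3 libraries with a deviation of 0.31 to 0.79 have 368 to 551 CPM of Mcl1, and the other 7 have 48.5 to 155 CPM.

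Among the BH3-only members, Pmaip1 (ENSMUSG00000024521, chromosome 18, 66458533 to 66465565, plus strand) encodes NOXA, a target of p53 that binds MCL1. It stood at 115 and 158 CPM in tumor of MHCII-deleted mice and at 298, 372 and 224 CPM in tumor of control mice. In LN it stood at 28.3 and 30.5 CPM in MHCII-deleted mice and at 24.2, 26.6 and 33.9 CPM in control mice, so the LN groups overlapped and the tumor groups did not. In MHCII-deleted mice Pmaip1 rose in tumor with 2.21 ± 0.25 (edgeR, adjusted p = 9.4e-05), or 3.41 ± 0.25 with T cell scaling. In control mice it rose with 3.40 ± 0.22, a 10.6-fold difference (edgeR, adjusted p = 2.64e-06), the largest tissue effect among the 10 members. The deletion effect in tumor was -1.13 ± 0.23 (edgeR, adjusted p = 0.00587), and with T cell scaling it turned to 0.00 ± 0.21 (adjusted p = 0.993). Expressed per 1000 counts of the T cell genes, Pmaip1 held 14.6 and 16.8 counts in tumor of MHCII-deleted mice and 15.4, 19.7 and 11.8 in tumor of control mice.

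Bcl2l11 (ENSMUSG00000027381, chromosome 2, 128126038 to 128162547, plus strand) encodes BIM, which can bind every anti-apoptotic member. Its level was 78.5 and 81.3 CPM in tumor of MHCII-deleted mice, compared with 132, 115 and 126 CPM in tumor of control mice. In LN it was 59.8 and 54.4 CPM in MHCII-deleted mice and 67.8, 52.8 and 62.1 CPM in control mice. All tumor libraries lay above all LN libraries. It rose in tumor of MHCII-deleted mice with 0.48 ± 0.14 (edgeR, adjusted p = 0.0191), or 1.70 ± 0.17 with T cell scaling, and in tumor of control mice with 1.03 ± 0.12 (adjusted p = 0.000111). The first call was lost without library 1 or 2 of the LN of MHCII-deleted mice (0.55 and 0.41, adjusted p = 0.0514 and 0.122) and without library 2 of their tumors (0.46, adjusted p = 0.0616). The deletion effect in tumor was -0.63 ± 0.13 (edgeR, adjusted p = 0.00643) and turned to 0.52 ± 0.15 with T cell scaling (adjusted p = 0.0106). In LN it was -0.09 ± 0.13 (edgeR, adjusted p = 1).

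Bbc3, which encodes the p53 target PUMA, was scarce, at 9.01 and 8.01 CPM in tumor of MHCII-deleted mice and 10.7, 10.2 and 13.2 CPM in tumor of control mice. In LN it stood at 21.1 and 21.4 CPM in MHCII-deleted mice, above 14.4, 14.9 and 9.32 CPM in control mice. In MHCII-deleted mice it fell in tumor by 1.32 ± 0.28 (edgeR, adjusted p = 0.00417), a call lost with T cell scaling (-0.09, adjusted p = 0.809), and in control mice the tissue effect was -0.18 ± 0.23 (adjusted p = 0.572). Its deletion effect was -0.42 ± 0.26 in tumor and 0.72 ± 0.25 in LN (edgeR, adjusted p = 0.25 and 0.274), and T cell scaling turned the tumor value to 0.74 ± 0.28 (adjusted p = 0.0374). A window of 100 bases in Bbc3 reaches 84% GC, and the LN value was 0.77 with the GC covariate.

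Bid, whose product links death receptors to the mitochondrial pathway, stood at 50.1 and 44.8 CPM in tumor of MHCII-deleted mice and 57.1, 47.4 and 42.1 in tumor of control mice. LN libraries held 68.2 and 71.7 CPM in MHCII-deleted mice and 69.5, 60.2 and 70.0 in control mice. It fell in tumor by 0.56 ± 0.16 in MHCII-deleted mice (edgeR, adjusted p = 0.0193) and by 0.45 ± 0.13 in control mice (adjusted p = 0.0248), and with T cell scaling these values were 0.67 (adjusted p = 0.0125) and -0.36 (adjusted p = 0.105). The call in control mice was lost without library 1 or 3 of their LN (-0.41 each) or library 2 or 3 of their tumors (-0.42 and -0.35), and that in MHCII-deleted mice without either LN library (-0.60 and -0.53) or tumor library 2 (-0.48), with adjusted p = 0.0611 to 0.0924 by edgeR. Bad, a BH3-only protein controlled by growth factor signaling, lay between 26.4 and 41.1 CPM in all 10 libraries and was called in none of the comparisons with TMM over all libraries, though its tissue effect in MHCII-deleted mice passed without tumor library 2 (0.55, edgeR, adjusted p = 0.0435) and with T cell scaling (1.61, adjusted p = 0.000131). Neither Bid nor Bad had a deletion effect that passed, with -0.04 ± 0.15 and 0.04 ± 0.16 in tumor (edgeR, adjusted p = 0.852 and 0.892), although T cell scaling gave 1.12 and 1.21, both called.

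Bax (ENSMUSG00000003873, chromosome 7, 45461697 to 45466898, minus strand) encodes one of the pore formers, and its level was far above that of Bak1, the other one. It stood at 138 and 122 CPM in tumor of MHCII-deleted mice, 146, 134 and 148 CPM in tumor of control mice, 103 and 106 CPM in LN of MHCII-deleted mice, and 103, 106 and 120 CPM in LN of control mice. Every tumor library lay above every LN library. Bax rose in tumor of control mice with 0.38 ± 0.10 (edgeR, adjusted p = 0.0125), a call lost without library 1 or 2 of their LN (0.34 and 0.35, adjusted p = 0.0555 and 0.0505). In MHCII-deleted mice the tissue effect was 0.31 ± 0.12 and did not pass (edgeR, adjusted p = 0.0599), but passed without tumor library 2 (0.40, adjusted p = 0.0467) and with T cell scaling (1.54 ± 0.16, adjusted p = 2.28e-05). Its deletion effect was -0.14 ± 0.11 in tumor (edgeR, adjusted p = 0.382) and 1.03 ± 0.14 with T cell scaling (adjusted p = 0.000146). Bak1 held 60 to 146 counts per library, or 1.82 to 5.18 CPM, and passed in none of the comparisons with TMM.

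**Figure D3:**
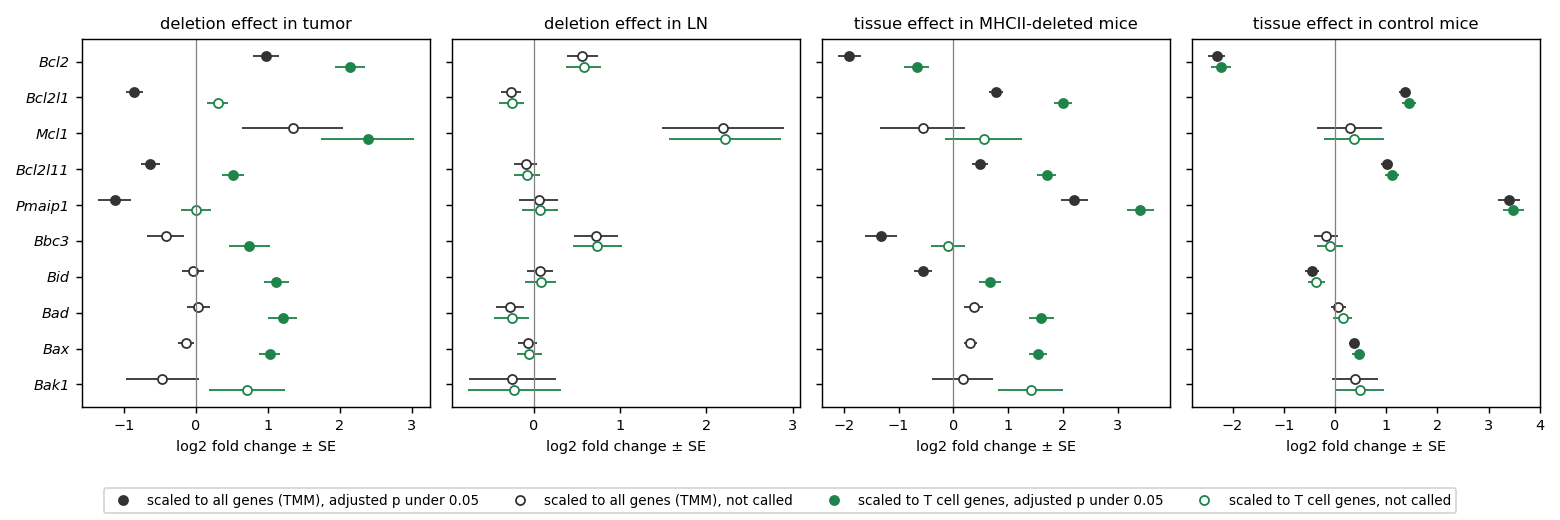
Log2 fold change ± SE of the 10 genes for the deletion effect (MHCII-deleted over control) in either tissue and the tissue effect (tumor over LN) in either genotype, scaled to all genes (black) or to T cell genes (green); filled points passed at an adjusted p under 0.05 by edgeR. T cell scaling moves every member up by about the same amount in the deletion effect in tumor, from -0.86 to 0.30 for Bcl2l1 and from 0.98 to 2.14 for Bcl2, and leaves the deletion effect in LN nearly in place.

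Ratios of counts per kilobase between members of 1 library carry no scaling between libraries, and are given as a description, with no test. They depend on the exon lengths used, such as 9157 bases for Bcl2 and 4586 bases for Bcl2l1. Each ratio covers all cells of a library, and the part of other cell types in it was not tested. Bcl2l1 over Bcl2 was 4.63 and 5.28 in tumor of MHCII-deleted mice and 17.1, 22.5 and 14.6 in tumor of control mice. In LN it was 0.625 and 0.979 in MHCII-deleted mice and 1.63, 1.33 and 1.19 in control mice. The 4 groups were free of overlap, with Bcl2l1 in excess in all tumor libraries, and the ratio was lower in MHCII-deleted than in control mice in both tissues. Bcl2l11 over Bcl2 followed the same order, with 1.38 and 1.69 in tumor of MHCII-deleted mice, 4.57, 5.50 and 4.14 in tumor of control mice, and 0.263 to 0.547 in LN. Bcl2l11 over Bcl2l1 varied least of these ratios, from 0.298 to 0.319 in tumor of MHCII-deleted mice, 0.244 to 0.284 in tumor of control mice and 0.294 to 0.421 in LN. The tumor groups did not overlap for it. Pmaip1 over Bcl2l1 was 1.28 and 1.82 in tumor of MHCII-deleted mice and 1.77, 2.33 and 1.49 in tumor of control mice, which overlap, against 0.352 to 0.607 in LN.

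**Figure D4:**
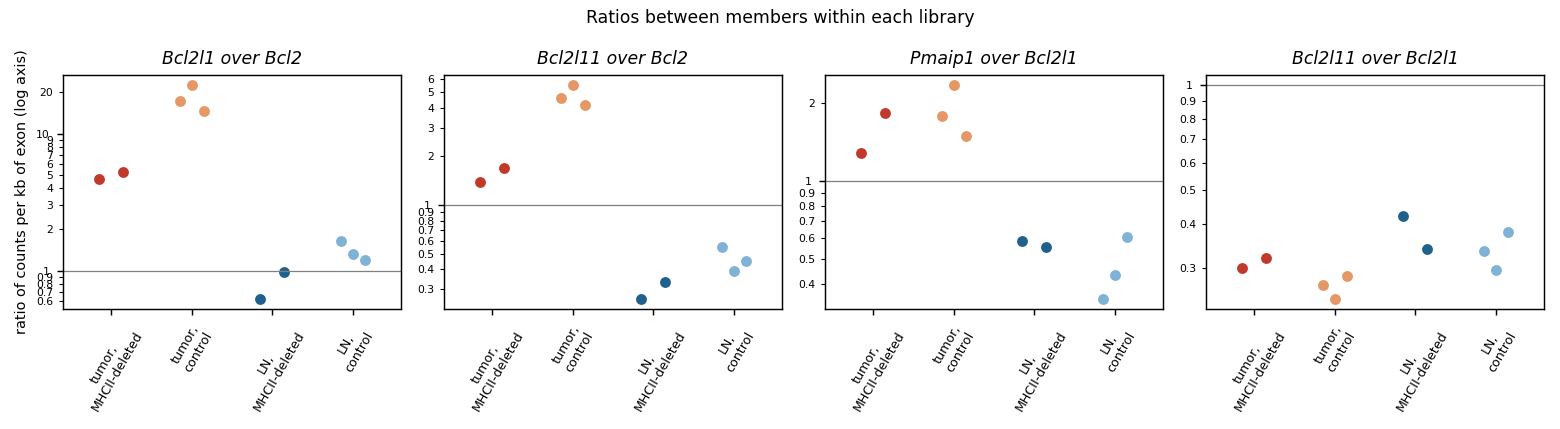
Ratios of counts per kilobase of exon between 2 members within each library (vertical log axis), by group, with tumor left of LN and MHCII-deleted left of control mice; each point is a library and the grey line marks equal levels. Bcl2l1 over Bcl2 ranges from 0.625 in LN of MHCII-deleted mice to 22.5 in tumor of control mice, while Bcl2l11 over Bcl2l1 lies between 0.244 and 0.421.

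Whether the deletion acted differently in tumor and LN was tested as an interaction. The effects of Bcl2l1 and Pmaip1 differed between the tissues, 2 of 10 members and both lower, where 10.7% of all genes were called, 4.14% higher and 6.57% lower. For Bcl2l1 the effect in tumor minus that in LN was -0.59 ± 0.16 (edgeR, adjusted p = 0.0449), and with T cell scaling it turned to 0.55 ± 0.21 (adjusted p = 0.0481). For Pmaip1 it was -1.19 ± 0.32 (edgeR, adjusted p = 0.041) and -0.07 ± 0.30 with T cell scaling (adjusted p = 0.893). With that scaling the median of all genes was 1.13, against -0.01 with TMM, 6 members were higher and 0 lower where 46.4% of all genes were higher and 0.144% lower, and 99.7% of the calls were higher, against 38.6%. The call of Bcl2l1 was kept without LN control library 1 or tumor control library 3 and lost without any of the other libraries (-0.68 to -0.50, adjusted p = 0.0702 to 0.177). The call of Pmaip1 was kept without LN control library 3, tumor control library 3 or tumor library 2 of MHCII-deleted mice and lost without any of the others (-1.24 to -0.98, adjusted p = 0.0663 to 0.131). Both were lost with the replicate number as a block (edgeR, adjusted p = 0.0572 and 0.0577). That block also ties libraries of different genotypes, which cannot share a mouse. Bcl2l11 and Bbc3 came next, at -0.54 ± 0.18 and -1.14 ± 0.36 (edgeR, adjusted p = 0.0869 and 0.0739).

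The rest of the family and the pathway around it were read from 4 lists. Of 15 other BCL2 family genes 12 were tested; Bcl2l10, Bcl2a1a and Hrk did not pass the filter. In tumor against LN of control mice 4 of them rose and 0 fell, with a median of 0.47, against 0.08 over all genes. The A1 genes Bcl2a1b and Bcl2a1d, anti-apoptotic and induced by NF-kB, rose with 0.93 ± 0.12 and 1.53 ± 0.20 (edgeR, adjusted p = 0.000231 and 0.000306), with the limit that reads can be split among their near-identical copies. Their levels were 64.5 ± 7.16 and 9.88 ± 0.906 CPM in tumor of MHCII-deleted mice (SD, n = 2) and 164 ± 20.2 and 30.2 ± 3.90 CPM in tumor of control mice (SD, n = 3). Both fell with the deletion in tumor, by 1.34 ± 0.14 and 1.61 ± 0.24 (edgeR, adjusted p = 0.000247 and 0.00123), and with T cell scaling neither passed (-0.20 and -0.46). Bnip3, a hypoxia-induced gene of mitophagy, averaged 365 ± 223 CPM in tumor of MHCII-deleted mice (SD, n = 2), 89.8 ± 11.4 in tumor of control mice (SD, n = 3), and 5.76 and 8.50 CPM in LN of the same 2 genotypes. Its tissue effects of 5.98 ± 0.42 and 3.40 ± 0.31 and its deletion effect in tumor of 2.02 ± 0.30 passed (edgeR, adjusted p = 6.54e-06, 2.93e-05 and 0.00146), the last at 3.23 with T cell scaling (adjusted p = 4.36e-05). In MHCII-deleted mice 4 of the 12 rose and 1 fell in tumor, with Bcl2l13 at 0.70 ± 0.18 and Bcl2l12 at -0.92 ± 0.28, where T cell scaling gave 7 higher and 0 lower, Bcl2l12 turning to 0.33 (adjusted p = 0.401). Each of these 2 calls was lost without some single libraries, with 0.43 and 0.58 for Bcl2l13 and -0.97 to -0.65 for Bcl2l12 (edgeR, adjusted p = 0.0758 to 0.124). The deletion effect in tumor had 2 higher, Bnip3 and Bcl2l13 (0.50 ± 0.16, edgeR, adjusted p = 0.0409), and 2 lower, the A1 genes, against 4 higher and 0 lower with T cell scaling. Without tumor library 1 of MHCII-deleted mice Bcl2l13 was 0.23, and without tumor library 1 or 3 of control mice 0.49 and 0.42 (edgeR, adjusted p = 0.355, 0.0891 and 0.105). Bok, which can form pores by itself, stood at 1.98 and 13.9 CPM in tumor of MHCII-deleted mice, compared with 2.14, 1.65 and 0 CPM in tumor of control mice, and at 0 to 0.170 CPM in LN. Tumor and LN of control mice thus overlapped. Its tissue effects passed over all libraries (edgeR, adjusted p = 0.0326 in MHCII-deleted and 0.0498 in control mice) but were lost without any one of 3 of the 4 libraries compared in MHCII-deleted mice and of 5 of the 6 in control mice (adjusted p = 0.0648 to 0.197).

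Downstream of the family, 17 genes of the apoptosome, the caspases and their inhibitors were all tested. In MHCII-deleted mice 4 rose and 4 fell in tumor, against 14 higher and 0 lower with T cell scaling, and in control mice 5 rose and 4 fell. Birc3, an inhibitor of apoptosis induced by NF-kB, rose in tumor of control mice with 0.82 ± 0.13, and Casp2, an initiator caspase, fell by 0.70 ± 0.13 (edgeR, adjusted p = 0.000757 and 0.00266). The deletion effect in tumor had 4 higher and 2 lower, with a median of -0.16, against 0.10 over all genes. With T cell scaling it had 15 higher and 0 lower, with a median of 1.00, against 1.26 over all genes. Vdac1, the mitochondrial outer membrane channel, rose with 1.79 ± 0.25, and Birc3 fell by 0.98 ± 0.15 (edgeR, adjusted p = 0.00103 and 0.00129), which turned to 0.19 with T cell scaling and did not pass. Vdac1 averaged 840 ± 430 CPM in tumor of MHCII-deleted mice (SD, n = 2). The mean was 243 ± 27.5 CPM in the control tumors (SD, n = 3). Tumor libraries 1 and 2 of MHCII-deleted mice held 1144 and 536 CPM of Vdac1, with melanoma marker sums of 19671.5 and 23903 CPM. Vdac1 was thus lower where the melanoma sum was higher. Control tumor libraries 1, 2 and 3 held 213, 250 and 266 CPM of Vdac1, with sums of 4948, 5867 and 9625 CPM. There both rose in the same order. The part of melanoma RNA in the Vdac1 difference was not tested. Vdac2 and the mitochondrial flavoprotein gene Aifm1 rose with 0.69 ± 0.12 and 0.63 ± 0.12 (edgeR, adjusted p = 0.00285 and 0.00458). With T cell scaling Vdac1, Vdac2 and Aifm1 stood at 2.99, 1.86 and 1.78 (edgeR, adjusted p = 3.01e-05, 1.75e-05 and 1.6e-05). In MHCII-deleted mice Cycs, which encodes cytochrome c, and the protease gene Htra2 rose in tumor with 2.38 ± 0.41 and 1.20 ± 0.20 (edgeR, adjusted p = 0.00115 and 0.000937).

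Of 11 genes of the death receptor pathway, 2 rose and 6 fell in tumor of MHCII-deleted mice, against 7 higher and 0 lower with T cell scaling, and 2 rose and 3 fell in tumor of control mice. Casp8, the initiator caspase that cleaves BID, fell by 1.33 ± 0.13 in MHCII-deleted mice (edgeR, adjusted p = 4.01e-05) and by 0.82 ± 0.11 in control mice (adjusted p = 0.000267), and with T cell scaling the first was -0.11 and did not pass. Fasl, the ligand of Fas, and Tnfrsf10b, a TRAIL receptor, rose in tumor of control mice with 2.01 ± 0.32 and 2.03 ± 0.29 (edgeR, adjusted p = 0.000875 and 0.000513). The deletion effect in tumor had 1 gene higher, Tnfrsf1a (0.88 ± 0.20), and 4 lower, among them Fas (-0.74 ± 0.14) and Tnfsf10, which encodes TRAIL (-1.21 ± 0.25; edgeR, adjusted p = 0.00949, 0.00431 and 0.00628). With T cell scaling it had 7 higher and 0 lower, where 68.1% of all genes were higher, with Tnfrsf1a at 2.05, Fas turned to 0.42 and Tnfsf10 at -0.04 (edgeR, adjusted p = 4.46e-05, 0.0287 and 0.888). Without tumor library 1 of MHCII-deleted mice Tnfrsf1a was 0.67 with TMM (edgeR, adjusted p = 0.0739).

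Among 15 upstream regulators, 4 rose and 8 fell in tumor of MHCII-deleted mice, 6 rose and 1 fell in tumor of control mice, and the deletion effect in tumor had 1 higher and 7 lower. With T cell scaling these counts were 12 higher and 0 lower in tumor of MHCII-deleted mice, 7 higher and 1 lower in tumor of control mice, and 11 higher and 0 lower for the deletion effect in tumor. Mitf, which is also among the melanoma markers, was counted with the genes that rose in tumor of both genotypes. Its tissue effects were 7.18 ± 1.10 in MHCII-deleted and 5.35 ± 0.84 in control mice (edgeR, adjusted p = 0.00066 and 0.00102). Trp53, which encodes p53, fell in tumor of control mice by 0.82 ± 0.10, while Cdkn1a, the classical p53 target, rose with 5.08 ± 0.38 (edgeR, adjusted p = 0.000217 and 1.07e-05). Cdkn1a averaged 404 ± 265 CPM in tumor of MHCII-deleted mice (SD, n = 2) and 309 ± 8.51 CPM in tumor of control mice (SD, n = 3), against 4.67 ± 0.218 and 9.19 ± 2.91 CPM in LN of the same 2 genotypes. The interleukin 2 receptor chains Il2ra, Il2rb and Il2rg fell with the deletion in tumor, at -1.19 ± 0.16, -1.10 ± 0.11 and -1.13 ± 0.09 (edgeR, adjusted p = 0.000864, 0.000232 and 0.000144), values that became -0.04, 0.05 and 0.01 with T cell scaling. Il7r, the interleukin 7 receptor, rose in tumor of control mice with 1.22 ± 0.15 (edgeR, adjusted p = 0.000177). None of the tested genes of the 4 lists was called for the deletion effect in LN by edgeR.

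**Figure D5:**
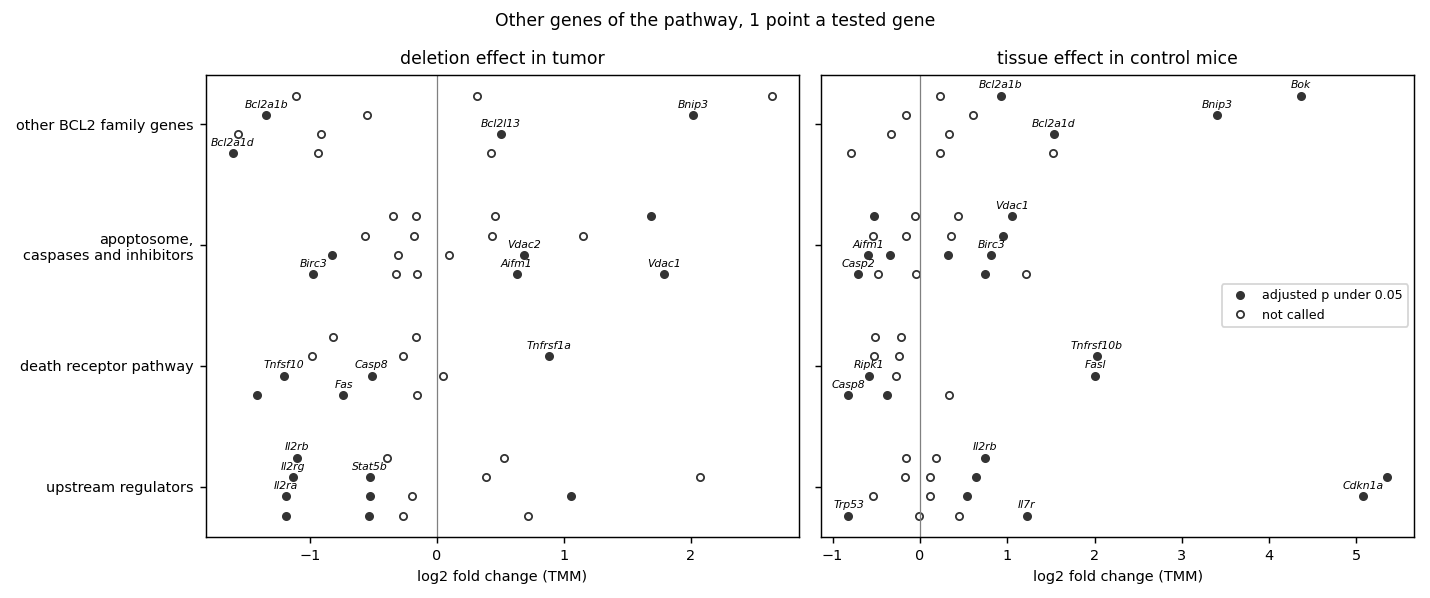
Log2 fold change (TMM) of the tested genes of the 4 pathway lists for the deletion effect in tumor and the tissue effect in control mice, 1 point a gene; filled points passed at an adjusted p under 0.05 by edgeR, and up to 4 called genes a list are named. In the deletion effect the upstream regulators had 7 genes lower and 1 higher with this scaling, against 0 lower and 11 higher with T cell scaling.

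Some genes outside the pathway resembled single members over the 10 libraries, by the root mean square difference of log2 CPM after centring each gene. Rel, Zc3hav1 and Agpat4 were nearest to Bcl2l1, with differences of 0.13, 0.13 and 0.15, where Bcl2l1 itself spanned 1.79. Rel, an NF-kB subunit, averaged 131 CPM in tumor of MHCII-deleted mice and 248 CPM in tumor of control mice, against 77.7 and 84.7 CPM in LN of the same genotypes. Gng2, Syngr2 and Fbxo34 were nearest to Bcl2l11 (0.14 each, where it spanned 1.32). For Bcl2 the nearest were Bcl9, Phxr2 and Pla2g4f, with larger differences of 0.25, 0.33 and 0.33. Bcl2 also spanned more, 3.45, and the measure is not divided by the span, so closeness cannot be compared between members. Group means of Phxr2 were 0 to 0.42 CPM.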

How the data were processed

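Whole-number counts per gene, not normalized, were deposited for 10 libraries of sorted regulatory T cells, 1 column a library. Tools listed by the submitters' processing notes are featureCounts 1.4.6, STAR 2.4 and CASAVA 1.8.2, with build GRCm38; the annotation release and the strand setting are not given in the sources used here. Per the labels' protocols, cDNA was amplified from 1 ng of RNA. Names came from GENCODE M21, which matched 21556 of 21556 identifiers.

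Genes passing edgeR's expression filter (minimum count 10, 13920 genes) were fitted with edgeR 4.0.16 (R 4.3.3; TMM, quasi-likelihood F test, 4 group means over all 10 libraries) and adjusted by Benjamini-Hochberg over all of them, called under 0.05. The fit was tested on simulated counts in which few genes changed, equally up and down. Those counts held no shift in cell mixture, so that test does not cover one. Fold changes are log2 with SE. Alternatives were RLE factors, scaling to T cell genes, no filter, a replicate block, the compared groups alone, DESeq2 1.42.0 and omission of each library; a GC covariate was chosen after seeing the data. Members and lists were chosen with earlier results of these data known. Called genes named from the lists come from the up to 4 with the smallest p per list and comparison, and not all of those are named. Foxo1 and the 3 genes most like Bcl2, Bcl2l1 and Bcl2l11 are named as well.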

Additional observations from a re-analysis of the deposited data

Results flagged for a closer look

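The deletion effects of 2 members differed between the tissues by the interaction test. For Bcl2l1 the effect in tumor minus that in LN was -0.59 on the log2 scale (edgeR, adjusted p = 0.0449), from -0.86 in tumor and -0.26 in LN. For Pmaip1 it was -1.19 (edgeR, adjusted p = 0.041), from -1.13 in tumor and 0.06 in LN. Scaled to T cell genes these differences were 0.55 (adjusted p = 0.0481) and -0.07 (adjusted p = 0.893). The T cell genes of tumor libraries summed to 7859 and 9389.7 CPM in MHCII-deleted mice, against 18857 to 19309 CPM in control mice, and the part of this gap in the differences was not tested further.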

How the results depend on the processing

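T cell scaling raised the called members to 7 and all called genes to 9524 for the deletion effect in tumor, and to 6 and 6484 for its difference from LN. It gave 395 called genes for the deletion effect in LN and 9326 for the tissue effect in MHCII-deleted mice. Directions turned with it in the deletion effect in tumor for Bcl2l1 (0.30), Bcl2l11 (0.52), Pmaip1 (0.0028), Bbc3 (0.74), Bid (1.12), Bax (1.03) and Bak1 (0.71). They turned in the tissue effect in MHCII-deleted mice for Mcl1 (0.55) and Bid (0.67), and in the difference for Bcl2l1 (0.55), Mcl1 (0.18), Bcl2l11 (0.60), Bbc3 (0.0031), Bid (1.03), Bax (1.08) and Bak1 (0.93). RLE factors left 23 genes called for the deletion effect in LN and 1 member for the difference, for which 48.0% of calls were then higher; no filter also left 1 member. With the compared groups alone, 2519 genes were called in tumor and 806 genes and 2 members in LN, and Bad was -0.040 in tumor. DESeq2 called 659 genes for the deletion effect in LN and 2487 for the difference. The GC covariate, which ran with genotype in LN, left 0 genes for the deletion effect there. With it Pmaip1 was -0.10, Bax 0.020 and Bak1 0.088 in LN, and Mcl1 was -1.26 and Bid 0.0052 in tumor. The cause of these changes was not tested.

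Same-numbered libraries deviated together little or not at all (13 correlations of -0.15 to 0.05). Some of these pairs cross genotypes and cannot share a mouse. Correlations this weak do not decide whether tumor and LN libraries of the same number share mice. The main fit did not pair libraries by number. With the replicate number as a block, 4 members and 3144 genes were called between genotypes in tumor and 0 members and 0 genes in LN. Between tissues 6 members were called in each genotype, with 5737 genes in MHCII-deleted and 4903 in control mice, and the interaction called 0 members and 1126 genes. Bak1 was 0.021 in LN.

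Without 1 library at a time, the genes called for the deletion effect in LN were 0 without any of its 5 libraries, and for the difference there were 0 to 2 members and 527 to 2281 genes (527 without LN library 2 and 2281 without tumor library 2 of MHCII-deleted mice). In the deletion effect in tumor Mcl1 ranged from -1.28 to 2.22, Bid from -0.14 to 0.084 and Bad from -0.17 to 0.21; in LN Pmaip1 ranged from -0.040 to 0.21, Bax from -0.11 to 0.0087 and Bak1 from -0.53 to 0.034. In the tissue effects Bad ranged from -0.00045 to 0.10 in control mice, and Mcl1 from -3.19 to 0.31 and Bak1 from -0.13 to 0.45 in MHCII-deleted mice. In the difference Mcl1 ranged from -3.48 to 0.023, Bid from -0.21 to 0.012, Bax from -0.16 to 0.017 and Bak1 from -0.52 to 0.061. Bak1, with 60 to 146 counts a library, is the member that depth limits most.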

Other observations

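Foxo1, a transcription factor that is known to control Bcl2l11 and Il7r in T cells, has a window of 100 bases that reaches 83% GC. It stood at 29.9 and 235 CPM in tumor of MHCII-deleted mice and at 91.7, 58.6 and 91.2 CPM in tumor of control mice. In LN it stood at 409 and 425 CPM in MHCII-deleted mice, against 101, 119 and 129 CPM in control mice. The high values lie in the same 3 libraries as those of Mcl1. With TMM over all libraries Foxo1 was called by edgeR in none of the comparisons. With T cell scaling its deletion effect in tumor was 1.78 (edgeR, adjusted p = 0.0146).

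The genes nearest to Mcl1 over the 10 libraries, a search added after its values were seen, were Zfp746, Ppp6r1 and Zfpm1, with root mean square differences of 0.17, 0.23 and 0.25 (log2). Their highest windows reach 85%, 88% and 91% GC. Ppp6r1 stood at 58.8 and 456 CPM in tumor of MHCII-deleted mice and at 165, 110 and 112 CPM in tumor of control mice. In LN it stood at 492 and 463 CPM in MHCII-deleted mice, against 122, 118 and 116 CPM in control mice.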
